A study of Mus musculus with 70 samples.

Results

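Gonadotrophs are the cells of the anterior pituitary that make follicle-stimulating hormone (FSH) and luteinizing hormone (LH). Each hormone is a dimer of a specific beta subunit, encoded by Fshb or Lhb, with the alpha subunit encoded by Cga, which the thyroid-stimulating hormone of thyrotrophs shares. Hypothalamic gonadotropin-releasing hormone (GnRH) acts on gonadotrophs through the receptor encoded by Gnrhr, and the nuclear receptors SF-1 (Nr5a1) and DAX-1 (Nr0b1) control the identity and output of these cells. Activins, dimers of the inhibin beta subunits encoded by Inhba and Inhbb, bind type II receptors such as the one encoded by Acvr2a and raise Fshb expression through Smad proteins, whereas inhibin (the alpha subunit from Inha joined to a beta subunit) and follistatin (Fst) oppose them.

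These 10 genes (Fshb, Lhb, Gnrhr, Nr5a1, Nr0b1, Inha, Inhba, Inhbb, Fst and Acvr2a) were chosen by gene symbol from the 22835 genes of a pituitary RNA-seq table, and each was represented by 1 transcript. Whole pituitaries of adult male C57BL/6J mice were used, with 3 pituitaries pooled in each RNA library. All mice received methimazole (MMI), which blocks thyroid hormone synthesis, together with potassium perchlorate in the drinking water, and the hyperthyroid groups also received the thyroid hormone T3 for the last part of the treatment. The labels of the histone libraries give doses of 0.05% MMI, 1% perchlorate and 0.5 μg/ml T3, and those of the RNA libraries give no dose. The 4 RNA groups were hypothyroid wild type (n = 4 libraries), hyperthyroid wild type (n = 4), hypothyroid Thrb-KO (n = 5) and hyperthyroid Thrb-KO (n = 5), where Thrb encodes the thyroid hormone receptor TRβ. No RNA library came from untreated mice.

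Of the 10 genes, 9 exceeded 1 CPM (read counts with each library scaled to the same total) in all 18 libraries, as did 13145 genes in the table. Fst did so in 0 of the 18 libraries and is described apart. Among the 9 genes, Nr5a1 alone passed the test in any comparison: its level was 1.52-fold higher in Thrb-KO than in wild type mice under hyperthyroid conditions. None of the 9 passed in the response to T3 in either genotype, in the difference between these responses, or between genotypes under hypothyroid conditions. A gene was called changed at an adjusted p below 0.05 and at least a 1.5-fold change in a limma model of log2(CPM + 1) fitted to all 13145 genes. Folds on this scale understate the change of genes with low levels, such as Nr0b1, Inhba and above all Fst.

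Libraries held between 21453548 and 55273749 reads (median 34673225). Replicates 1 and 2 differed as a set from replicates 3 to 5 in every group: Lars2, which encodes a mitochondrial leucyl-tRNA synthetase, lay between 2571 and 3420 CPM in the former 8 libraries and between 53.2 and 95.1 CPM in the latter 10. The labels name 2 library kits without saying which library used which, so these sets cannot be tied to a kit. Hyperthyroid wild type replicate 3 stood apart from its group, with a TMM scaling factor of 0.832, and the lowest correlation between libraries of that group was 0.915. Some of the member results that changed without it are given both ways below. Without it, 2 log2 changes between genotypes in hyperthyroid mice also turned: Acvr2a from 0.25 to −0.02 and Gnrhr from 0.01 to −0.15. The difference of the T3 responses of Acvr2a went from −0.01 to 0.26. These did not pass with or without that library.

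The targeted gene did not check the genotype labels. Mean Thrb RNA was 257 CPM in hypothyroid wild type and 271 CPM in the hypothyroid libraries labelled Thrb-KO, and 104 against 260 CPM under hyperthyroid conditions. The values count reads over a whole transcript, and the part removed by the allele is not given in the sources used here. Thrb was lowered by T3 in wild type (log2 change −1.32, adjusted p = 1.3e-06) and differed in its response from Thrb-KO (log2 difference −1.26, adjusted p = 0.00032), and leaving out any 1 library kept both calls. Thra, which encodes the other T3 receptor, was 1.43-fold higher in Thrb-KO than in wild type hyperthyroid mice (adjusted p = 0.00105), which is below the fold required for a call.

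The gonadotropin beta subunits were among the most abundant transcripts of the gland. Fshb ranked 48th and Lhb 105th of 22835 genes by mean CPM over the 18 libraries. Per kilobase of transcript the order was Cga (mean level 5877 CPM per kb), Lhb (654), Fshb (362), Inha (25.0), Gnrhr (21.7), Nr5a1 (13.9), Inhbb (7.35), Acvr2a (6.55), Nr0b1 (1.26), Inhba (1.11) and Fst (0.0614). The per-kilobase ranges of neighbours in that order overlapped for Lhb and Fshb, for each pair from Inha to Acvr2a, and for Nr0b1 and Inhba. Lengths are those of the longest annotated coding transcript, which need not be the transcript that was counted. In whole glands fewer gonadotrophs and less RNA per gonadotroph cannot be told apart.

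**Figure D1:**
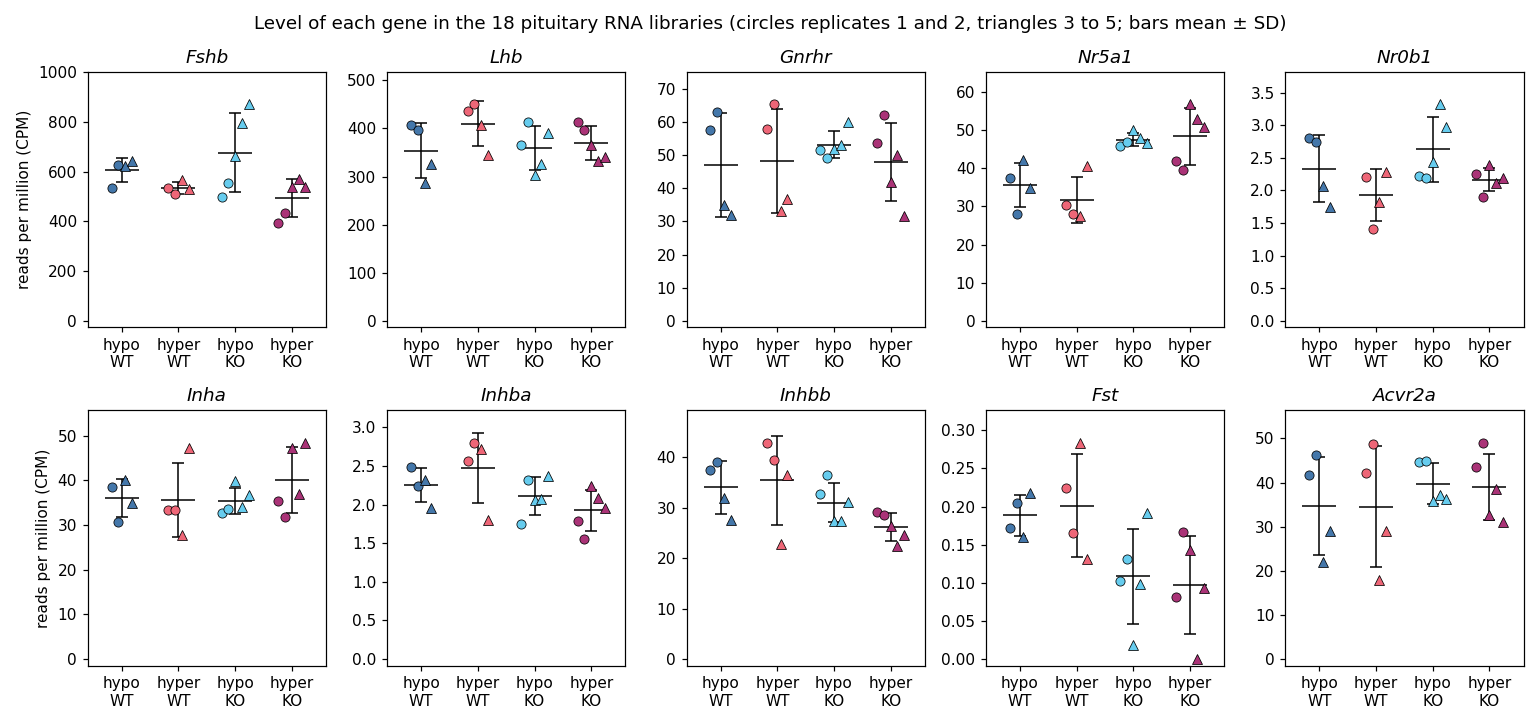
Level of each of the 10 genes in CPM (vertical axis, linear, from 0) in the 18 libraries by group; circles are replicates 1 and 2, triangles replicates 3 to 5, and black bars the mean ± SD of the group (n = 4 for wild type, n = 5 for Thrb-KO). The 5 hypothyroid Thrb-KO libraries lie above the 4 hypothyroid wild type libraries for Nr5a1, and for the other genes each pair of groups overlaps.

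Binding of TRβ near these genes was read from lists of peaks made by affinity purification of a biotin-tagged receptor (TRβ-HAB) from pools of 12 untreated pituitaries, with mice that carry the BirA ligase alone as controls. Of the 10 genes, 3 (Fshb, Lhb and Inha) had a pituitary TRβ-HAB peak within 20 kb of the gene body, compared with 41.2% of the 12798 tested genes with a single placed locus. In cerebral cortex 1 of the 10 genes (Inha) had such a peak, compared with 34.9%. Of the peaks of chromatin accessibility that the study called T3-regulated (ATAC), 0 lay within 20 kb of the 10 genes, compared with 7.71% of genes. That list comes from nuclei marked through the alleles Thrb b2Cre/+ and Rosa26 Sun1-GFP, and whether gonadotroph nuclei were among them was not tested.

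The peak nearest to Fshb lay in sequence with no annotated gene, 11188 bases upstream of its start (mm9, chr2:106911001-106911300; Fshb itself is at chr2:106896297-106899813, minus strand). It held 13 reads of the merged tagged libraries and 2 of the control libraries, a fold of 5.42 as given by the authors, where the median peak of the list held 18 and 2 reads and a fold of 10.0. The peak is shown because it holds a match to the motif that TRβ binds, a direct repeat of AGGTCA with a spacer of 4 bases. Whether this site acts on Fshb was not tested. Capitals mark both hexamers of the match, which lies on the other strand (GGGTCAacctAGTTCA when read there) and differs from the repeat at 2 of 12 bases.

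Fshb peak, plus strand: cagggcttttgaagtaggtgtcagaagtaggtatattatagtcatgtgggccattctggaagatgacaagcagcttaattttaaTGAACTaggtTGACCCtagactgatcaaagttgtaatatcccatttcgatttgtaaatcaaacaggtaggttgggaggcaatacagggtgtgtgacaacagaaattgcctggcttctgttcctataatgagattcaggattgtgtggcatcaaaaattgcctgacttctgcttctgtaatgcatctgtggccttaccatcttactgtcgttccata

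Both peaks near Inha lay in coding exons of the neighbouring gene Obsl1, on the minus strand, with Inha at chr1:75503652-75506941 on the plus strand. The farther peak (chr1:75484101-75484350), 19302 bases upstream, held 14 and 1 reads (fold 11.7) and a repeat with 2 mismatches. The nearer peak (chr1:75499401-75499700), 3952 bases upstream, held 11 and 0 reads, and its best matches had 3 mismatches. A cortex peak with 13 and 2 reads lay at chr1:75500001-75500500, close to the nearer pituitary peak but not overlapping it. The pituitary peaks are shown with the hexamers of the best matches in capitals.

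Inha peak, farther, plus strand: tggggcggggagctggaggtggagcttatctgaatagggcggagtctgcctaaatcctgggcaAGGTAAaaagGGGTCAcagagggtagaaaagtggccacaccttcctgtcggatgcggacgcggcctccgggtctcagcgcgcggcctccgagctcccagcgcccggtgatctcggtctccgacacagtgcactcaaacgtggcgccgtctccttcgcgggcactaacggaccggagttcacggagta
Inha peak, nearer, plus strand: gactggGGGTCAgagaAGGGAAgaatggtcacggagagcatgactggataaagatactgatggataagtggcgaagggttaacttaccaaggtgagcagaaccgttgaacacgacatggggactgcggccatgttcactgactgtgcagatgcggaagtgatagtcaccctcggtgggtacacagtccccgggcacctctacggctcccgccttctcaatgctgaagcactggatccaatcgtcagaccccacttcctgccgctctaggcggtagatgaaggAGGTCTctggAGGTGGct

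The peak near Lhb (chr7:52689251-52689700, with Lhb at chr7:52673723-52677224 on the plus strand) lay 12027 bases downstream, over coding and UTR exon sequence of Ruvbl2. It held 17 and 1 reads (fold 14.2), and its best matches had 3 mismatches. In all, 2 of these 4 pituitary peaks held a repeat with at most 2 mismatches, compared with 20.9% of the 8051 pituitary peaks. The search read both strands of each peak, and a match describes the letters alone. Among the pituitary peaks between 20 and 100 kb, Nr5a1 had a pituitary peak 33926 bases downstream (15 and 2 reads), nearest to Psmb7, and Fst had one 64170 bases downstream, in Ndufs4, with 59 and 4 reads. The last was the 1 pituitary peak within 100 kb of these genes that overlapped a cortex peak.

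**Figure D2:**
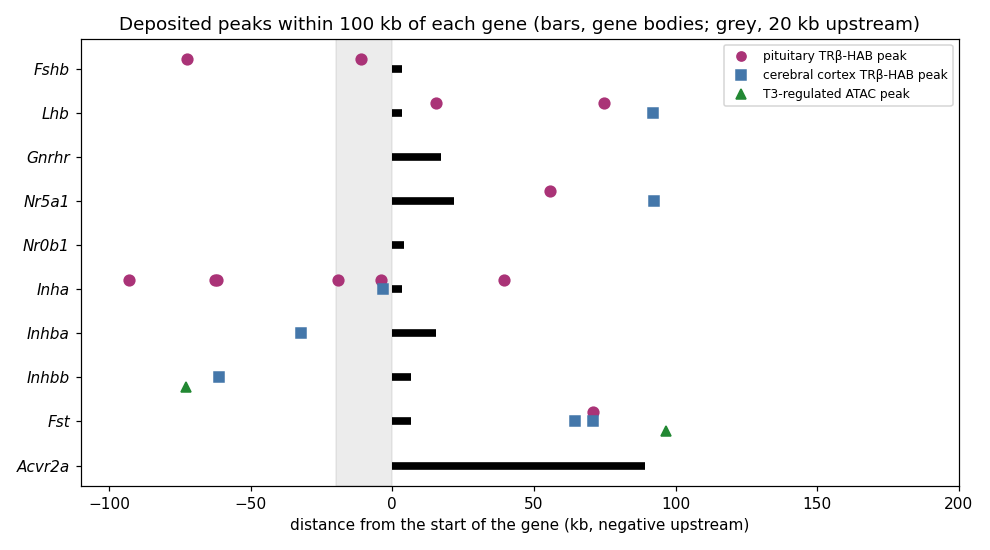
Deposited peaks within 100 kb of each gene by distance from its start in kb (horizontal axis, negative upstream); black bars are gene bodies, circles pituitary TRβ-HAB peaks, squares cerebral cortex TRβ-HAB peaks and triangles T3-regulated ATAC peaks. Circles within 20 kb of a gene occur for Fshb, Lhb and Inha, and both triangles lie over 70 kb away, at Inhbb and Fst.

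Nr5a1 encodes SF-1, an orphan receptor that binds DNA as a monomer at the motif AAGGNCA, and was the member with a called change. Of the 10 genes, 8 had an entry in the RefSeq promoter table (GRCm38.p6), and 2 of these, Lhb and Gnrhr, held the motif in the 250 bases before the start, compared with 17.5% of 32851 promoters searched on both strands. Both are shown in capitals at each match, written in the direction of the gene. All 4 matches are on the other strand, so the capitals spell the reverse complement. Where N is T the motif contains the half-site AGGTCA, as in the first match in Lhb.

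Lhb upstream, chr7:45420696-45420945, plus strand: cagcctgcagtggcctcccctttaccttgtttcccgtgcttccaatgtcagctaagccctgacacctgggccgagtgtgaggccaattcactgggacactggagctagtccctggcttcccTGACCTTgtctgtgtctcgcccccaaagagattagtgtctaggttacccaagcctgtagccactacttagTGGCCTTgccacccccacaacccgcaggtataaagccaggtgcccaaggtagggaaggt
Gnrhr upstream, chr5:86197902-86198151, minus strand: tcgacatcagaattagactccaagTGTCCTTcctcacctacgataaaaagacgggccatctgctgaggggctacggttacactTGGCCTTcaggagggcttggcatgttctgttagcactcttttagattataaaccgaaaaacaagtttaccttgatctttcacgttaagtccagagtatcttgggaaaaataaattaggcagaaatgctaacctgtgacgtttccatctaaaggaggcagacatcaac

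The mean level of Nr5a1 was higher in Thrb-KO than in wild type pituitaries under both conditions, and was called under hyperthyroid conditions alone. Under hyperthyroid conditions the 4 wild type libraries had 30.3, 28.0, 27.5 and 40.5 CPM and the 5 Thrb-KO libraries 41.9, 39.4, 56.7, 52.9 and 50.7 CPM. These groups overlapped by 1 library each, since wild type replicate 4 exceeded Thrb-KO replicate 2. The log2 change was 0.60 ± 0.13 (SE), with a 95% interval from 0.33 to 0.87 and an adjusted p of 0.0040, and Thrb-KO was higher in 4 of 4 same-numbered pairs.

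Under hypothyroid conditions the wild type libraries had 37.3, 28.0, 42.1 and 34.9 CPM of Nr5a1 and the Thrb-KO libraries 45.8, 47.0, 50.1, 48.0 and 46.6 CPM. Here the groups did not overlap, which held for 14.3% of the 13145 genes in this comparison, 11.3% between genotypes under hyperthyroid conditions, 17.4% for T3 in wild type and 5.58% for T3 in Thrb-KO. The log2 change was 0.42 (95% interval 0.15 to 0.69), with an adjusted p of 0.062 in the model without a replicate block and 0.020 with it. Without hypothyroid wild type replicate 3, hyperthyroid wild type replicate 3 or hyperthyroid wild type replicate 4 the adjusted p was 0.041, 0.038 and 0.034, and it stayed above 0.05 in the other 15 omissions, up to 0.196. Over the 11 other alternatives 5 passed on the adjusted p and 6 did not, with DESeq2 at 0.025, edgeR at 0.062 and replicates 3 to 5 alone at 0.194. Between hypothyroid and hyperthyroid mice the log2 change of Nr5a1 was −0.17 (interval −0.46 to 0.12) in wild type and 0.01 (−0.24 to 0.27) in Thrb-KO.

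The call for Nr5a1 under hyperthyroid conditions rested on its fold, not on its p. The adjusted p stayed at or below 0.0155 when each of the 18 libraries was left out in turn and at or below 0.0116 over the 11 other alternatives. The log2 change fell below 1.5-fold without hyperthyroid wild type replicate 2 (0.55) or 3 (0.54), or without hyperthyroid Thrb-KO replicate 3 (0.54), 4 (0.57) or 5 (0.58), and likewise by edgeR (0.53) and DESeq2 (0.53). Of the 9 genes, 1 was called in this comparison (edgeR 0, DESeq2 0), and 4.86% of all genes were. With the p alone, 1 of the 9 passed by limma and 2 each by edgeR and DESeq2 (Nr5a1 and Inhbb), compared with 12.1% of all genes by limma. Of the 13145 genes, edgeR passed 811 higher and 913 lower on the p alone, and DESeq2 976 and 1188. Under hypothyroid conditions 0 of the 9 were called (limma, edgeR and DESeq2 alike; 1 at an unadjusted p below 0.05), compared with 3.02% of all genes, or 6.85% with the adjusted p alone.

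Nr0b1 encodes DAX-1, a corepressor of SF-1, and was measured near the lower limit, between 1.40 and 3.32 CPM. Its group means were 2.34 ± 0.518 (SD, n = 4) and 1.93 ± 0.403 CPM (n = 4) in hypothyroid and hyperthyroid wild type, and 2.63 ± 0.497 (n = 5) and 2.17 ± 0.182 CPM (n = 5) in the Thrb-KO groups. Nr0b1 was lower under hyperthyroid conditions in 3 of 4 wild type pairs and 4 of 5 Thrb-KO pairs, with log2 changes of −0.19 in each genotype that did not pass (adjusted p = 0.40 and 0.89). The library sets went opposite ways in wild type: the change was −0.44 in replicates 1 and 2 alone (adjusted p = 0.030) and 0.07 in replicates 3 to 5 alone (adjusted p = 0.79). The difference between the responses of the genotypes was 0.00 (interval −0.36 to 0.37), and −0.38 and 0.34 in the sets alone.

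**Figure D3:**
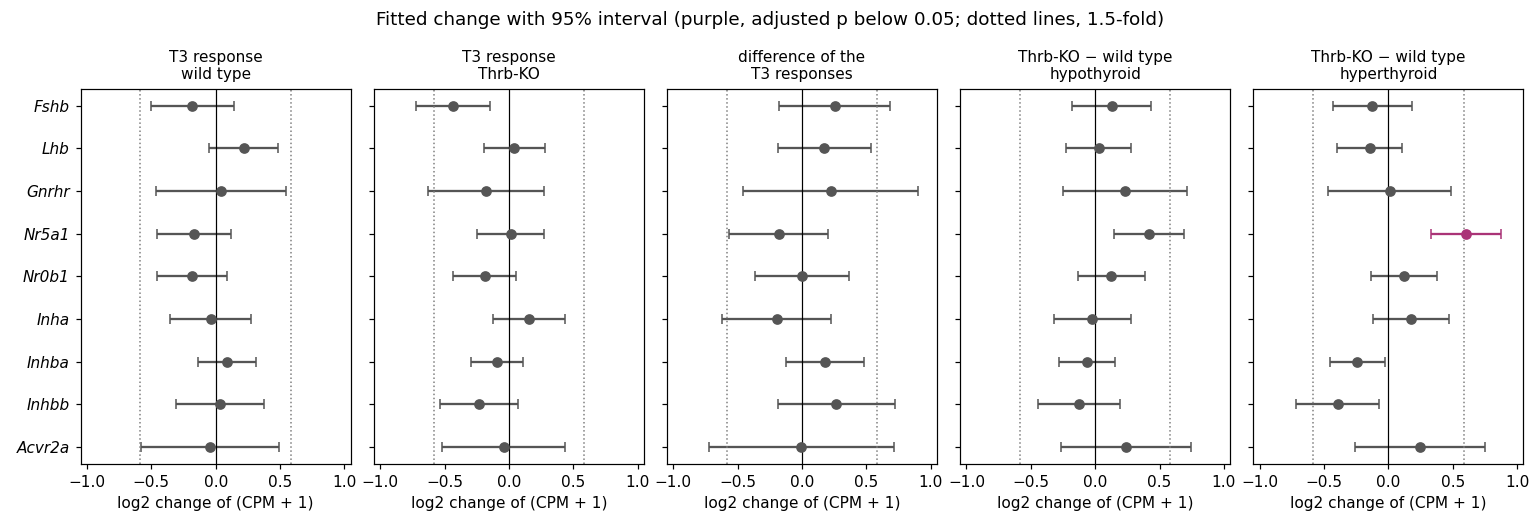
Fitted log2 change of (CPM + 1) with its 95% interval (horizontal axis) for the 9 genes above 1 CPM in every library, in the 5 comparisons; purple marks an adjusted p below 0.05 and dotted lines mark 1.5-fold. Nr5a1 in the last comparison (0.60) is the one purple point.

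Fshb, which encodes the specific subunit of FSH, had a lower mean level in hyperthyroid than in hypothyroid mice of both genotypes, and in no setting was it called. For T3 in Thrb-KO its adjusted p was below 0.05 in 4 of the 11 other alternatives (lowest 0.0074), the replicate block among them. The same held in 1 of 18 omissions, each time at a change below 1.5-fold. In Thrb-KO the hypothyroid libraries had 498, 556, 664, 797 and 871 CPM and the hyperthyroid libraries 396, 433, 536, 569 and 540 CPM, in the order of replicates 1 to 5. All 5 same-numbered pairs were lower with T3, although the groups overlapped. The log2 change was −0.43 (95% interval −0.72 to −0.15), which did not pass in the model without a block (adjusted p = 0.17). With the replicate block its adjusted p was 0.0094, where 3.67% of all genes had an adjusted p below 0.05. Within replicates 1 and 2 alone it was −0.34 (adjusted p = 0.029) and within replicates 3 to 5 alone −0.49 (adjusted p = 0.035). Without hypothyroid Thrb-KO replicate 1 and with no block it was −0.54 (adjusted p = 0.0498).

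In wild type the hypothyroid libraries had 535, 628, 623 and 645 CPM of Fshb and the hyperthyroid libraries 532, 509, 566 and 531 CPM. The 4 pairs were again lower with T3, the first by the least. The log2 change was −0.18 (interval −0.51 to 0.14, adjusted p = 0.52, or 0.20 with the block). The difference between the responses of the genotypes was 0.25 (interval −0.18 to 0.69, adjusted p = 0.73), so that the response in Thrb-KO is not shown to differ from that in wild type.

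Lhb, which encodes the specific subunit of LH, differed little between groups. The hypothyroid wild type libraries had 406, 398, 286 and 325 CPM and the hyperthyroid ones 436, 450, 408 and 344 CPM, and each of the 4 pairs was higher with T3. The log2 change was 0.22 (interval −0.05 to 0.48), with an adjusted p of 0.29 without the block and 0.067 with it. In Thrb-KO 3 of 5 pairs were higher with T3 and 2 lower. The means there were 359 ± 45.4 and 369 ± 34.8 CPM (n = 5 each), a log2 change of 0.04 (interval −0.20 to 0.28). For Lhb a change of 1.5-fold thus lay outside the interval of both responses to T3.

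The ratio of Fshb to Lhb CPM within a library was 1.76 ± 0.388 in hypothyroid and 1.32 ± 0.182 in hyperthyroid wild type (SD, n = 4 each). In Thrb-KO it was 1.92 ± 0.524 and 1.36 ± 0.324 (n = 5 each). The ratio was lower with T3 in 4 of 4 wild type and 5 of 5 Thrb-KO pairs, although the ranges overlapped, and it was not tested.

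**Figure D4:**
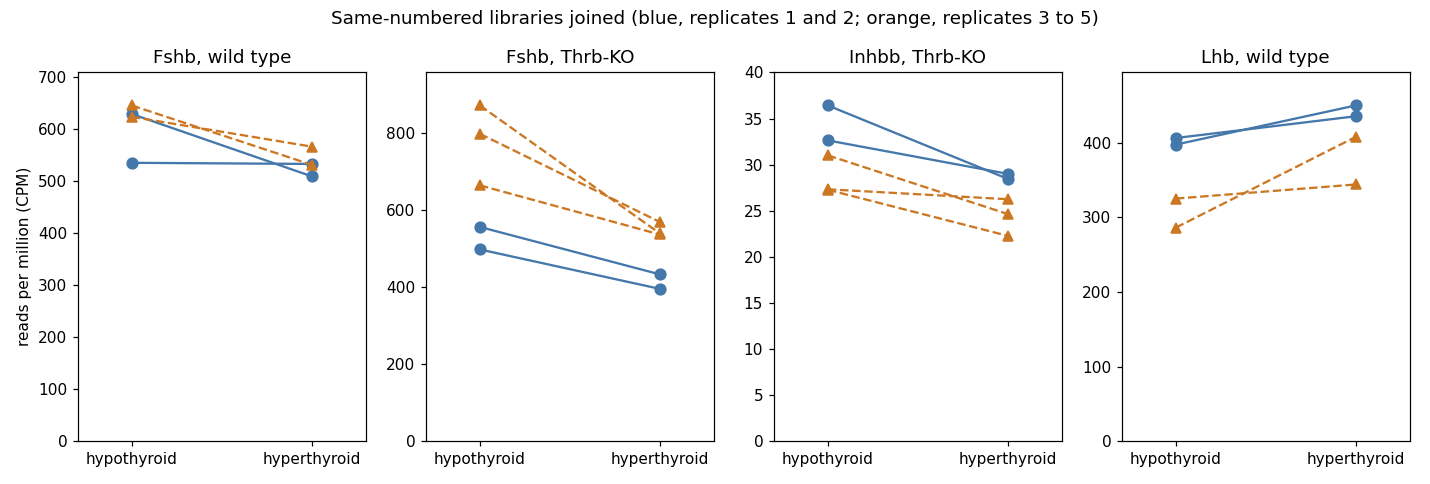
CPM (vertical axis, from 0) of Fshb, Inhbb and Lhb in hypothyroid and hyperthyroid libraries of the genotype named above each panel, with libraries of the same replicate number joined; blue circles are replicates 1 and 2 and orange triangles replicates 3 to 5. Each line of Fshb falls, by the least in wild type replicate 1 (from 534.6 to 532.4 CPM), each line of Inhbb in Thrb-KO falls, and each line of Lhb in wild type rises. Not drawn are Inhbb in wild type (3 pairs higher and 1 lower) and Lhb in Thrb-KO (3 higher and 2 lower).

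Cga, the subunit shared with thyroid-stimulating hormone, had a response unlike those of Fshb and Lhb. In wild type it fell with T3, from a mean level of 8118 ± 2373 to one of 1355 ± 213 CPM (SD, n = 4 each; log2 change −2.55, adjusted p = 2.6e-09), and by 2.11 on the log2 scale in Thrb-KO (adjusted p = 9.9e-08). Thyrotrophs also express Cga, and the thyrotroph markers Tshb, Trhr and Dio2 were called lower with T3 in both genotypes (log2 −4.95, −4.08 and −4.81 in wild type). The summed level of the 4 thyrotroph markers lay between 9915 and 18710 CPM in hypothyroid and between 1236 and 2114 CPM in hyperthyroid wild type. How much of the Cga signal came from gonadotrophs was not tested.

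Gnrhr, the GnRH receptor, did not pass in any of the 5 comparisons, and its libraries split by set rather than by group in wild type. The wild type libraries of replicates 1 and 2 had between 57.6 and 65.4 CPM and those of replicates 3 and 4 between 32.0 and 36.7 CPM, whatever the T3 status. In Thrb-KO the sets overlapped, at 49.2 to 62.3 CPM and 31.5 to 60.0 CPM. The log2 response to T3 was 0.04 in wild type (interval −0.46 to 0.55) and −0.18 in Thrb-KO (−0.63 to 0.27). In replicates 3 to 5 alone Gnrhr was higher in hypothyroid Thrb-KO than wild type (log2 0.69, adjusted p = 0.024), whereas in replicates 1 and 2 alone the change was −0.26.

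Acvr2a, which encodes an activin type II receptor, followed the same sets. Its wild type libraries had between 41.6 and 48.7 CPM in replicates 1 and 2 and between 18.0 and 29.1 CPM in replicates 3 and 4, and its Thrb-KO libraries between 43.5 and 49.0 and between 31.1 and 38.6 CPM. No comparison passed, with log2 responses to T3 of −0.05 (interval −0.58 to 0.49) in wild type and −0.04 (−0.52 to 0.44) in Thrb-KO. Without hyperthyroid wild type replicate 3 the first was 0.22 (adjusted p = 0.52), and that of Gnrhr in wild type was 0.20 (adjusted p = 0.61). Together with those of Gnrhr these intervals were the widest of the 9 genes.

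Inhbb encodes the beta B subunit of activin B and inhibin B, the main activin made by gonadotrophs. In hyperthyroid mice the wild type libraries had 42.8, 39.4, 22.8 and 36.5 CPM and the Thrb-KO libraries 29.0, 28.5, 26.3, 22.3 and 24.7 CPM. In wild type 3 of the 4 libraries lay above all Thrb-KO libraries, and the exception was replicate 3, the library that stood apart. The log2 change was −0.39 (interval −0.71 to −0.07, adjusted p = 0.11), or −0.58 without that library (adjusted p = 0.0028). With the replicate block and all libraries it was −0.38 with an adjusted p of 0.024, where 19.3% of all genes had an adjusted p below 0.05. Over the 11 other alternatives, this block among them, the adjusted p ran from 0.00044 to 0.30. It was below 0.05 in 6 of the 11, and 0 reached a call.

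Inhbb was lower with T3 in 5 of 5 Thrb-KO pairs, from a mean of 30.9 ± 3.85 to 26.1 ± 2.77 CPM (SD, n = 5 each), a log2 change of −0.23 that did not pass (adjusted p = 0.90, or 0.33 with the block). In wild type the change was 0.03 (interval −0.31 to 0.37), or 0.23 without hyperthyroid wild type replicate 3 (adjusted p = 0.23). There 3 of 4 pairs were higher with T3 and 1 lower. Under hypothyroid conditions Thrb-KO was lower in 4 of 4 pairs (log2 −0.13, adjusted p = 0.74).

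Inhba, which encodes the beta A subunit of activin A, was near the lower limit, between 1.56 and 2.80 CPM. Its mean was 2.47 ± 0.455 CPM (SD, n = 4) in hyperthyroid wild type and 1.93 ± 0.263 CPM (n = 5) in hyperthyroid Thrb-KO, a log2 change of −0.24 (interval −0.46 to −0.03, adjusted p = 0.15). Without hyperthyroid wild type replicate 4 it was −0.34 (adjusted p = 0.028). The other changes of Inhba lay between −0.09 and 0.18.

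Inha, which encodes the alpha subunit of the inhibins, was the most abundant of the activin and inhibin genes per kilobase. Its group means lay between 35.4 and 40.0 CPM, a ratio of 1.13 between the highest and the lowest. The log2 response to T3 was −0.04 (interval −0.35 to 0.27) in wild type and 0.16 (−0.12 to 0.44) in Thrb-KO. Neither response passed (adjusted p = 0.92 and 1.0), and that in wild type was 0.06 without hyperthyroid wild type replicate 3 (adjusted p = 0.80).

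Fst, which encodes the activin-binding protein follistatin, was counted by 88 reads over the 18 libraries. In wild type all 8 libraries held more than 3 reads, with 6 to 7 reads in each hypothyroid and 5 to 10 in each hyperthyroid library. In Thrb-KO 2 of 5 hypothyroid libraries and 2 of 5 hyperthyroid libraries held more than 3 reads, and the totals were 17 reads in each group against 26 and 28 in wild type. In a fit with no filter on low values, the log2 change between genotypes was −0.10 in hypothyroid (adjusted p = 0.30) and −0.13 in hyperthyroid mice (adjusted p = 0.11). With all values below 1 CPM the pseudocount holds these changes near 0, so they do not measure the fold. The mean levels were 0.188 ± 0.0268 and 0.201 ± 0.0675 CPM in hypothyroid and hyperthyroid wild type (SD, n = 4 each) and 0.108 ± 0.0628 and 0.0969 ± 0.0646 CPM in Thrb-KO (n = 5 each). Thrb-KO was lower in 4 of 4 hypothyroid and 3 of 4 hyperthyroid pairs, and the groups overlapped.

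Counted together, 0 of the 9 genes were called in the response to T3 in wild type (0 by edgeR, 0 by DESeq2 and 0 at an unadjusted p below 0.05), compared with 9.46% of all genes, or 19.3% with the adjusted p alone. In Thrb-KO 0 were called (0 by edgeR, 0 by DESeq2, and 1, Fshb, at an unadjusted p below 0.05), compared with 1.01% of all genes, or 1.79%. For the difference of the responses 0 were called (0 by either other tool and 0 unadjusted), compared with 4.26%, or 5.46%. With the replicate block and the adjusted p alone, 1 of the 9 passed between genotypes under hypothyroid conditions (Nr5a1), where 14.3% of all genes did. The comparisons share groups, so their counts are not independent. The median log2 change of the 9 genes in wild type was −0.04, and that of all 13145 genes was −0.04.

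Other genes that act on gonadotrophs were taken from 4 lists. Markers of other cell types moved in the same wild type comparison: Gh (log2 1.03) and Prl (1.70) were called higher, and Tshb, Trhr, Dio2, Col1a1 (−0.73) and Col3a1 (−0.62) lower. Dcn, listed with these collagens as a stromal marker, was higher (0.34) and not called. The summed stromal level lay between 155 and 175 CPM in hypothyroid and between 131 and 193 CPM in hyperthyroid wild type. The lactotroph list holds Prl and Pou1f1, and the somatotroph list Gh, Ghrhr and Pou1f1. Of these, Pou1f1 (−0.07) and Ghrhr (0.20) were not called. The summed lactotroph level lay between 5984 and 9470 CPM in hypothyroid and between 14648 and 53280 CPM in hyperthyroid wild type. The somatotroph level lay between 48532 and 66488 and between 87608 and 159299 CPM. Their part in the changes of the list genes was not tested. Of the 14 tested genes of activin, inhibin and Smad signalling other than the members, 3 fell and 0 rose with T3 in wild type, where 9.46% of all genes were called (509 higher and 735 lower, or 674 and 539 with TMM-scaled CPM). In Thrb-KO 0 of the 14 were called by limma, where 1.01% of all genes were. Acvr1c, which encodes the type I receptor ALK7, fell from 26.0 ± 7.58 to 8.33 ± 3.17 CPM (SD, n = 4 each; log2 −1.55, adjusted p = 0.00023). Igsf1, an X-linked membrane glycoprotein gene of the pituitary, fell from 472 ± 72.2 to 240 ± 33.3 CPM (log2 −0.97, adjusted p = 7.4e-05). Fstl3, a follistatin-like inhibitor of activin, fell from 9.93 ± 1.16 to 5.99 ± 0.886 CPM (log2 −0.65, adjusted p = 0.0031), a call that was lost without hyperthyroid wild type replicate 2 (−0.55), with TMM-scaled CPM (−0.56) and in replicates 3 to 5 alone (−0.56). In this list 4 genes other than Fst could not be tested: Inhbc, Inhbe and Tdgf1 stayed below 1 CPM in all libraries, and Tgfbr3l had no row under that symbol.

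The responses of Acvr1c and Igsf1 to T3 differed between genotypes, and that of Fstl3 was not shown to (log2 difference −0.41, adjusted p = 0.32). In Thrb-KO Acvr1c had 15.4 ± 3.32 and 14.8 ± 4.55 CPM (SD, n = 5 each) in hypothyroid and hyperthyroid mice, and the difference of the responses was −1.47 (adjusted p = 0.015). For Igsf1 the levels were 377 ± 54.1 and 358 ± 53.6 CPM, and the difference was −0.90 (adjusted p = 0.0086). Both differences kept their call when each library was left out. Acvr1c was also called higher in Thrb-KO than wild type hyperthyroid mice (log2 0.78, adjusted p = 0.045), a call lost in 10 of 18 omissions of a library: hyperthyroid wild type 2, 3 or 4, hypothyroid wild type 4, hypothyroid Thrb-KO 1, 3 or 4, and hyperthyroid Thrb-KO 1, 2 or 4, with log2 changes of the 18 omissions from 0.61 to 0.97. Under hypothyroid conditions it was −0.69 (adjusted p = 0.11), and −0.60 with the replicate block (adjusted p = 0.0018).

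Of 23 tested genes of GnRH receptor signalling other than Gnrhr, 4 fell and 0 rose with T3 in wild type, against the same 9.46% of all genes. Rgs4, a regulator that limits signalling by G proteins, fell from 137 ± 32.5 to 33.0 ± 3.38 CPM (SD, n = 4 each; log2 −1.998, adjusted p = 4.2e-08) and was the 1 gene of the list called in Thrb-KO (log2 −1.42, adjusted p = 5.8e-06). Plcb1, a phospholipase C, fell by 0.93 (adjusted p = 0.00032) and Gnaq, the G protein alpha subunit to which the GnRH receptor couples, by 0.74 (adjusted p = 0.00082). In replicates 1 and 2 alone the change of Gnaq was −0.51, below 1.5-fold, and without hyperthyroid wild type replicate 3 the changes of Plcb1 and Gnaq were −0.71 and −0.61, both still called. Prkca, a protein kinase C, fell by 0.71 (adjusted p = 0.028), and its call was lost without hypothyroid wild type replicate 1 or 2 or hyperthyroid wild type replicate 3 or 4, with log2 changes of the 18 omissions from −0.88 to −0.49, the last without replicate 3, and also in replicates 1 and 2 alone (−0.49). All of these genes are expressed in many cell types, and for Rgs4 the difference of the responses was −0.57 (adjusted p = 0.16). In Thrb-KO the changes of Plcb1, Gnaq and Prkca were −0.38, −0.32 and −0.29 and did not pass. Their differences of the responses were −0.54, −0.42 and −0.41 (adjusted p = 0.20, 0.29 and 0.65). Their responses are thus not shown to differ between genotypes.

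Among 9 tested gonadotroph transcription factors other than the members, 1 rose and 1 fell with T3 in wild type, again against 9.46% of all genes. Gata2, a factor of thyrotrophs and gonadotrophs, fell from 78.0 ± 4.19 to 50.1 ± 8.08 CPM (SD, n = 4 each; log2 −0.64, adjusted p = 7.8e-05), with a difference of the responses of −0.56 (adjusted p = 0.014) that was below 1.5-fold. Lhx3, a factor of early pituitary development, rose from 69.4 ± 8.52 to 107 ± 20.6 CPM (log2 0.60, adjusted p = 0.0060). Its change in Thrb-KO was 0.21, and its difference of the responses was 0.40 (adjusted p = 0.37). The call for Gata2 was lost without hyperthyroid wild type replicate 2 (log2 changes of the 18 omissions from −0.73 to −0.57) and in 4 of 11 other alternatives: TMM-scaled CPM (−0.54), edgeR (−0.58), DESeq2 (−0.57) and replicates 3 to 5 alone (−0.58). The call for Lhx3 was lost in replicates 3 to 5 alone (0.55) and without hypothyroid or hyperthyroid wild type replicate 1, hypothyroid wild type replicate 2 or hyperthyroid wild type replicate 4 (0.48 to 0.68 over the 18 omissions). Of 5 tested steroid receptors and related genes, 1 rose and 0 fell with T3 in wild type, where 9.46% of all genes were called. Esr1, the estrogen receptor alpha, rose from 129 ± 53.5 to 248 ± 90.4 CPM (log2 0.95, adjusted p = 0.030). Its call was lost without hypothyroid wild type replicate 3 or 4 or hyperthyroid wild type replicate 1 or 2 (0.74 to 1.20 over the 18 omissions). In Thrb-KO 0 of the 5 were called, where 1.01% of all genes were. There Esr1 changed by 0.43, and its difference of the responses was 0.53 (adjusted p = 0.69).

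**Figure D5:**
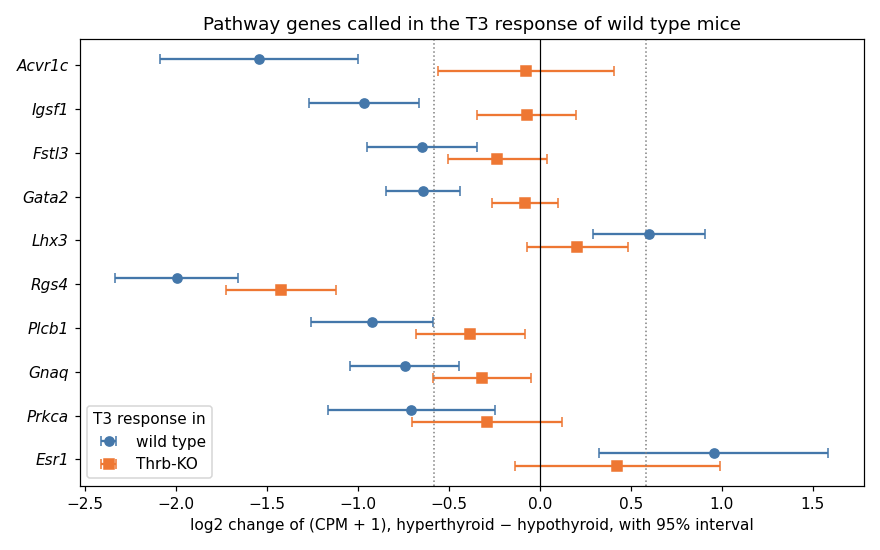
Fitted log2 change of (CPM + 1) between hyperthyroid and hypothyroid mice with its 95% interval (horizontal axis) for the 10 pathway genes called in wild type; blue circles are wild type, orange squares Thrb-KO and dotted lines 1.5-fold. Rgs4 (−1.998 and −1.42) is past the dotted line in both genotypes, and Acvr1c and Igsf1 lie near 0 in Thrb-KO.

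Genes whose levels ran most closely with a gonadotroph gene were sought over the 18 libraries, after the group means and the mean of each library set were subtracted from log2(CPM + 1). For Lhb they were Dyx1c1 (Pearson's r = 0.82), Ptrh2, Mamstr, Nfib and Ddx19a. For Fshb they were B430319G15Rik (0.88), Cast, Gabra2, Hsdl2 and Eif4e, and for Gnrhr Wapal (0.91), Gabra2, Gm5643, Nasp and Taf1. No other member was among these genes: the r between Lhb and Fshb was 0.54, between Fshb and Gnrhr 0.69, and between Lhb and Gnrhr 0.20. These correlations describe libraries that share pooling and depth, and carry no test.

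Markers of other cell types moved with the genotype in the comparison where Nr5a1 was called. In hyperthyroid mice 2 of 4 thyrotroph markers were higher in Thrb-KO (Dio2 2.18 and Trhr 0.69 on the log2 scale), as was Pou1f1 (0.63) of the somatotroph and lactotroph lists. The other markers of those lists were not called: Gh (−0.27) and Prl (−0.58) were lower and Ghrhr (0.19) higher. Aldh1a2 of the stem and folliculostellate list (1 of 3 tested, −0.59) and C1qa of the blood and immune list (1 of 3, −0.62) were lower. The summed stem and folliculostellate level lay between 82.6 and 97.2 CPM in wild type and between 57.9 and 73.9 CPM in Thrb-KO, and the blood and immune level between 32.3 and 41.9 and between 16.02 and 30.5 CPM. None of the defining markers was at 0 in a whole group, and their part in the change of Nr5a1 was not tested. Of the 5 gonadotroph markers, 4 (Lhb, Fshb, Gnrhr and Cga) were not called in that comparison.

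With T3 in Thrb-KO, where Fshb was lower, 4 of 4 thyrotroph markers were called lower and Prl of lactotrophs higher (log2 1.63). The summed lactotroph level lay between 4870 and 6049 CPM in hypothyroid and between 12175 and 20601 CPM in hyperthyroid Thrb-KO, and the summed somatotroph level between 58013 and 74069 and between 83203 and 115295 CPM. The part of these changes in the level of Fshb, a share of all reads, was not tested. In the limma model without a block, neither the log2 change of Fshb (−0.43, adjusted p = 0.17) nor that of Lhb (0.04) passed.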

How the data were processed

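Pituitary RNA was measured in 18 libraries of pooled glands, and TRβ-HAB and ATAC peak lists were read for position. Per the study's methods, the authors mapped single-end RNA reads to RefSeq mouse transcripts of mm9 with BBMap and deposited CPM per transcript, scaled to the reads of each library and not divided by length. In each library 100% of values were whole multiples of 1 read (within 0.05 read), so reads were recovered for count tests. For TRβ-HAB the authors merged libraries by genotype before calling peaks on mm9, and the labels' processing notes list SICER 1.1. The deposited peak lists hold read counts, a p-value and false discovery rate, and a fold ratio, and allow no test between replicates. Titles name the control libraries BirA, while their genotype field also lists the tagged allele. The deposited ATAC list holds positions and adjusted p-values of the authors' own comparison, with neither fold nor direction. There were 0 columns that matched no sample.

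The transcript with the highest mean CPM stood for each gene. Genes above 1 CPM in all libraries were fitted with limma 3.58.1 (R 4.3.3; trend, pseudocount 1) as 1 model of the 4 groups, two-sided, with Benjamini-Hochberg adjustment over 13145 genes. The planned filter was meant to keep all members, but Fst failed it and entered a fit with no filter. The labels do not say that pools came from separate cohorts, so p-values measure the spread between pools of 3 glands. Alternatives were pseudocount 0.1, other filters, TMM scaling, edgeR 4.0.16 (quasi-likelihood), DESeq2 1.42.0, blocks for replicate number or library set, each library set alone, summed transcripts, and each library left out. For T3 in wild type limma called 509 genes higher and 735 lower, edgeR 702 and 696, and DESeq2 756 and 683. Replicate numbers, taken from the sample titles, were used to pair the samples. Deviations from the group means correlated above 0.1 in all 9 same-numbered pairs across T3 status (0.255 to 0.815). They did so in all 8 pairs across genotype (0.257 to 0.691). The library sets were left in these deviations, so this check cannot tell a pairing by number from the sets. Pair counts and the replicate block rest on the numbers in the titles alone. A library correlated best with its own number in 5 of the 9 and 3 of the 8 pairs. No 2 libraries of a group agreed within sampling noise (chi-square per degree of freedom at least 3.78). The scripts were tested on simulated data.

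Gene positions, transcript lengths and peak sequences came from NCBIM37 (GENCODE vM1), and promoters from RefSeq. The members, Cga, Thrb, Thra, each called gene of 4 pathway lists (up to 6 per list and comparison), called markers, and the 5 genes most like Lhb, Fshb and Gnrhr are named. The members and lists were chosen with earlier results of these data known.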

Additional observations from a re-analysis of the deposited data

How the results depend on the processing

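The count of genes called between genotypes in hyperthyroid mice, 1 (Nr5a1), became 0 with TMM-scaled CPM, edgeR, DESeq2, a library set block, or replicates 1 and 2 alone, since its change then fell below 1.5-fold, and ranged from 0 to 1 when single libraries were left out. In hypothyroid mice the count of 0 became 1 (Gnrhr) in replicates 3 to 5 alone. With the replicate block the counts of called members stayed at 0, 0, 0, 0 and 1, and among the list genes it added the call of Acvr1c in hypothyroid mice. It moved 3 member values past an adjusted p of 0.05 without a call (Fshb for T3 in Thrb-KO, Nr5a1 in hypothyroid and Inhbb in hyperthyroid mice), and changed no other. Within 100 kb, 5 of the 10 genes had a pituitary peak, 6 a cortex peak and 2 an ATAC peak, against 70.9%, 63.0% and 18.2% of all placed genes. Within 50 kb 2 had a cortex peak (49.2% of genes), and with only the peaks above the median fold 0 had a cortex peak within 20 kb (17.3%). Of the 4 pituitary peaks, 0 held a repeat with at most 1 mismatch and 4 with at most 3, against 3.94% and 55.0% of the list. For the 22 values of single genes that were called or had an adjusted p below 0.05, the side of the call rule was compared. The other alternatives kept 246 results on their side, moved 1 past the rule (Thra in hyperthyroid mice) and 17 below it. Omissions of 1 library kept 367 and moved 29 below it. Of the 246, 22 were entries for dropping the fold limit, which were counted as kept without a test. With that limit dropped, Thra would pass by limma for T3 in wild type (adjusted p = 0.00305). It would also pass between genotypes in hyperthyroid mice (adjusted p = 0.00105). Outside these 22, replicates 3 to 5 alone also added a call of Cga in hypothyroid mice (−0.75). No called value reversed its direction. TMM scaling moved the share of higher calls from 40.9% to 55.6% for T3 in wild type, from 41.8% to 56.3% for the difference, and from 52.3% to 38.1% between genotypes in hyperthyroid mice. The causes were not tested. Depth limits Fst, Nr0b1 and Inhba most.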
